A study of Schizosaccharomyces pombe with 23 samples.

Results

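The strains described here are the *rpn10Δ* fission yeast strains whose labels name no drug marker at the deletion, set against wild-type strains in which the replication fork barrier was inactive (WT RFB OFF). The *rpn10Δ* libraries were selected on their read counts at *rtf1*, the gene of the protein that activates the barrier: the labels call them RFB ON, with *rtf1* driven from the ADH1 promoter, but both held almost no counts on the gene. The comparison uses 5 of the 23 libraries of the series, of which 20 were usable. In *rpn10Δ* there was 1 Pol δ library (strain KK1581, the *cdc6-L591G* polymerase mutant) and 1 Pol ε library (strain KK1582, *cdc20-M630F*), both labelled NAT:ADH1:rtf1 with rnh201-RED:KAN. In WT RFB OFF there was 1 usable Pol δ library (KK1467) and 2 Pol ε libraries (KK1473 and KK1474), with the same polymerase alleles, rtf1::Nat and rnh201-RED:Kan. A second WT RFB OFF Pol δ library of 7167 counts was left out. Every strain also carried the RTS1 barrier construct on chromosome II (RTS1::phleo with Rura-ChrII) together with ura4-D18, leu1-32 and ade6-704, and was grown to log phase in YE at 30 °C. WT RFB ON (Nat:ADH1:rtf1, 1 library per polymerase) served outside the barrier region to call origins and as the axis of fork direction. No label says that libraries of 1 group came from separate cultures, so p-values measure only the spread between libraries, and with 1 library per polymerase the deletion, the strain and the library cannot be told apart.

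Rpn10 is a ubiquitin receptor in the regulatory particle of the proteasome, where it binds ubiquitin chains on proteins due for degradation. In an undisturbed fork, Pol ε copies the leading strand and Pol δ the lagging strand, so the strand that each polymerase copied gives the direction in which a fork moved. An origin appears as a place where leftward forks give way to rightward forks, and a merging point as the reverse. Polymerase usage sequencing (Pu-Seq) reads this from ribonucleotides, which the mutant polymerases insert more often than normal. The ribonucleotides persist in strains with the rnh201-RED allele of the gene for Rnh201, a subunit of RNase H2.

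The libraries were counts of read ends in 41909 bins of 300.0 bp on each strand. Pol δ usage is the Pol δ share of the Pol δ and Pol ε counts of a bin and strand after each library was divided by its total, so 0.5 means equal use relative to the genome. The rightward fork share combines both strands: it is 1 where Pol ε made all of the Watson strand and Pol δ all of the Crick strand, and 0 in the reverse case. Total counts were 9960885 (KK1581) and 9861907 (KK1582) in *rpn10Δ*, against 17000711 (KK1467), 13749680 (KK1473) and 15138124 (KK1474) in WT RFB OFF. Libraries are averages over many cells, so forks that moved both ways in different cells and a strand made by both polymerases cannot be told apart.

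At *rtf1* (SPAC22F8.07c, chrI:4797195-4799127), 6 bins held 70 and 78 counts in the *rpn10Δ* Pol δ and Pol ε libraries, against 107, 64 and 71 counts in WT RFB OFF (KK1467, KK1473 and KK1474). WT RFB ON had 554 and 1729 counts there. Relative to the flanking bins, the *rpn10Δ* libraries stood at 7.39% and 8.85% of the WT RFB ON level, and the WT RFB OFF libraries at 6.81%, 4.88% and 4.88%. These values chose the libraries and are given without a test. At *rpn10* itself (SPAC637.10c, chrI:4557551-4558696), 3 bins held 0 and 0 counts in *rpn10Δ*, against 1078, 903 and 1006 counts in WT RFB OFF, so both *rpn10Δ* libraries carried the deletion. Across the genome, the bins that both *rpn10Δ* libraries had lost were the 4 between positions 4557750 and 4558650 of chromosome I (bin centres).

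Origins of chromosome I recur below, and for 3 of them the reference sequence (build ASM294v3, Watson strand) of the bin at the centre of each is printed here, with the longest uninterrupted run of A and T in capitals. The first is the origin with the largest jump in WT RFB OFF on that chromosome, between *mnl1* and *tsc3*, and the others are origins whose jump in *rpn10Δ* lay far above the genome-wide relation.
mnl1 and tsc3, chrI:4087801-4088100: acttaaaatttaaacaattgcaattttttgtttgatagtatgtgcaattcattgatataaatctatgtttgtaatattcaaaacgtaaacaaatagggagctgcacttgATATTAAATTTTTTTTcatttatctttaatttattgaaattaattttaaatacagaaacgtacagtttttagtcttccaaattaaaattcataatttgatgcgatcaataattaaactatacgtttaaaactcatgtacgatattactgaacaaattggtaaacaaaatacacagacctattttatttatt
urg3 and urg1, chrI:1834201-1834500: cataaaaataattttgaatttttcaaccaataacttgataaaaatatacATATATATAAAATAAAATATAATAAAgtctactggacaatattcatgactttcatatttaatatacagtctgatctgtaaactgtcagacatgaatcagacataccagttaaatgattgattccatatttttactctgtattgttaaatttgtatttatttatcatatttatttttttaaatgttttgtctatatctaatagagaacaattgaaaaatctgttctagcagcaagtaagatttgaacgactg
ypt2 and rad26, chrI:4450201-4450500: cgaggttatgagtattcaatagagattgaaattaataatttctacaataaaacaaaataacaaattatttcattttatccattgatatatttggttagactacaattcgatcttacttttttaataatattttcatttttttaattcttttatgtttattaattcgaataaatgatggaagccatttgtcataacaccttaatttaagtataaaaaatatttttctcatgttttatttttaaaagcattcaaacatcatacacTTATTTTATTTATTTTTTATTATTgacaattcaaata
Their A and T contents were 78%, 77.3% and 81%, in the order printed, and their longest A and T runs were 16, 26 and 24 bases. Runs at least as long occur in 14.3%, 1.61% and 2.41% of the 18597 bins of chromosome I. All of them lie between protein-coding genes.

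The strand asymmetry from which fork direction is read was weaker in *rpn10Δ* than in WT RFB OFF across the genome. The slope of fork direction (Crick minus Watson Pol δ usage) per bin on that of WT RFB ON was 0.819 in *rpn10Δ* and 0.941 in WT RFB OFF, so *rpn10Δ* had 87.0% of the WT RFB OFF amplitude. Of the 6 ways to assign these libraries to strains, this one gave the largest difference (exact permutation test, two-sided, p = 0.167, the smallest that 6 arrangements allow, so 0.05 could not be reached). With the WT RFB ON libraries added to the wild type, and fork direction in the *nup132Δ* Hygro libraries as the axis, the amplitude was 85.7% (exact permutation test, two-sided, p = 0.0833, the smallest of 12 arrangements).

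The loss appeared as a narrower spread of usage on both strands. The 5th, 50th and 95th percentiles of Watson Pol δ usage over bins were 0.202, 0.489 and 0.822 in *rpn10Δ*, against 0.157, 0.490 and 0.871 in WT RFB OFF. For the Crick strand they were 0.201, 0.488 and 0.824 in *rpn10Δ*, against 0.159, 0.487 and 0.87 in WT RFB OFF. The medians of both strains were thus close together while both tails lay nearer the middle in *rpn10Δ*. The SD of fork direction over bins was 0.393 in *rpn10Δ*, 0.447 in WT RFB OFF and 0.467 in WT RFB ON.

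The pattern along the chromosomes was kept. Over the 41557 bins used, fork direction in *rpn10Δ* correlated with that in WT RFB OFF with r = 0.981, and WT RFB ON with WT RFB OFF with r = 0.983 (Pearson, across bins, which share libraries and are not independent). In 94.8% of bins *rpn10Δ* lay on the same side of equal fork directions as WT RFB OFF, against 94.7% for WT RFB ON. The amplitude of *rpn10Δ* was 87.1%, 86.8% and 87.2% of that of WT RFB OFF on chromosomes I, II and III. It was lowest close to origins, at 84.9% between 1 and 3 kb from an origin centre, and 87.9% to 88.8% in the 3 classes further away. In 123 segments of 100 kb, the ratio was below 1 in every one, with a median of 0.876 and an SD over segments of 0.0285. The lowest segment was chrII:1-100000 at 0.718, and the highest was chrI:500001-600000 at 0.950. The same ratio of WT RFB ON to WT RFB OFF ran between 0.953 and 1.09 with a median of 1.04, and 4 of its 123 segments were below 1.

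**Figure D1:**
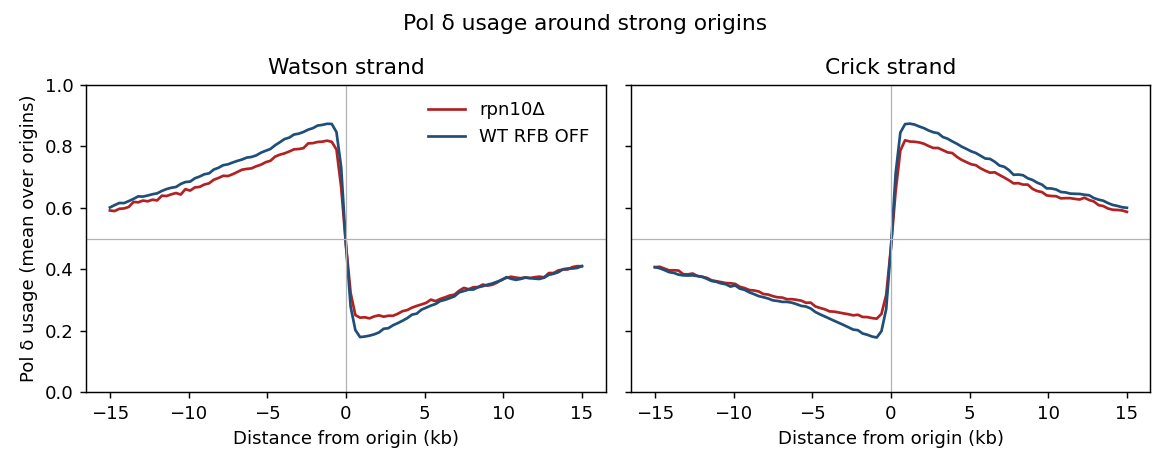
Mean Pol δ usage (y axis, no unit) by distance from the centre of strong origins (x axis, kb) on the Watson and Crick strands, for *rpn10Δ* and WT RFB OFF. Both strains cross 0.5 at the origin, and next to it the *rpn10Δ* lines lie nearer 0.5 on both sides, while further out the lower arms run together and the upper arms stay apart.

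Each *rpn10Δ* library showed the narrower asymmetry by itself. The share of counts on the Watson strand in rightward replicated regions was 21.3% in the *rpn10Δ* Pol δ library, against 16.2% in WT RFB OFF Pol δ, and in leftward regions it was 79.4% in *rpn10Δ* against 84.3% in WT RFB OFF. For Pol ε, the Watson share in rightward regions was 80.4% in *rpn10Δ*, against 84.3% and 84.6% in WT RFB OFF. In leftward regions it was 20.1% in *rpn10Δ* Pol ε, against 16.0% and 15.7% in WT RFB OFF. Thus in *rpn10Δ* a larger share of the counts of each polymerase fell on the strand that held fewer of them in WT RFB OFF. Whether forks moved both ways more often or the polymerases changed strands cannot be told apart from these shares.

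Measured as the slope of the Watson share on fork direction, the *rpn10Δ* Pol δ library reached 84.3% of the WT RFB OFF value (1 library against 1, with no test). The Pol ε library reached 87.7%, below both WT RFB OFF libraries, which stood at 99.0% and 101% of their mean (exact permutation test, two-sided, p = 0.333, the smallest that 3 arrangements allow). The WT RFB ON libraries stood at 106% (Pol δ) and 107% (Pol ε). Values in the range of the *rpn10Δ* libraries also occurred outside this strain pair: the *nup132Δ* libraries with *rtf1* ran between 56.9% and 84.4% (Pol δ, n = 4) and between 27.2% and 87.4% (Pol ε, n = 4). The part of library differences of this kind in the *rpn10Δ* values was not tested.

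The loss of asymmetry ran differently with distance in the 2 polymerase libraries, a difference that 1 library each does not let be tested. Around the 185 strong origins, the Watson share of the *rpn10Δ* Pol δ library was 69.9% on the left and 29.7% on the right, against 78.5% and 21.6% in WT RFB OFF Pol δ. That of the *rpn10Δ* Pol ε library was 20.01% on the left and 79.3% on the right, against 16.5% and 83.0% (KK1473) and 16.2% and 83.2% (KK1474) in WT RFB OFF. At 0.9 kb from the centre, the Watson share changed across the origin by -45.2 percentage points in *rpn10Δ* Pol δ, against -63.9 in WT RFB OFF Pol δ. At 15 kb the change was -15.8 points in *rpn10Δ* and -16.1 points in WT RFB OFF. The Pol δ step of *rpn10Δ* therefore stood at 65.2% of the WT RFB OFF step at 0.3 kb, 70.7% at 0.9 kb, 81.0% at 3 kb, 93.6% at 9 kb and 97.7% at 15 kb.

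The Pol ε step did not show this gradient. It changed by 65.6 points at 0.9 kb in *rpn10Δ*, against 72.3 and 72.8 in WT RFB OFF, and by 19.4 points at 15 kb in *rpn10Δ*, against 21.6 and 21.8 in WT RFB OFF. As a share of WT RFB OFF it was 80.6% at 0.3 kb and between 87.7% and 91.6% from 0.6 to 15 kb. A jump at origins that was reduced more than the genome-wide slope was seen in 6 of the other 8 usable Pol δ libraries of the series as well, WT RFB OFF aside, so it was not particular to *rpn10Δ*. For the *rpn10Δ* Pol δ library the mean origin jump was 72.8% of WT RFB OFF beside the slope of 84.3%, and for Pol ε 87.2% beside 87.7%.

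**Figure D2:**
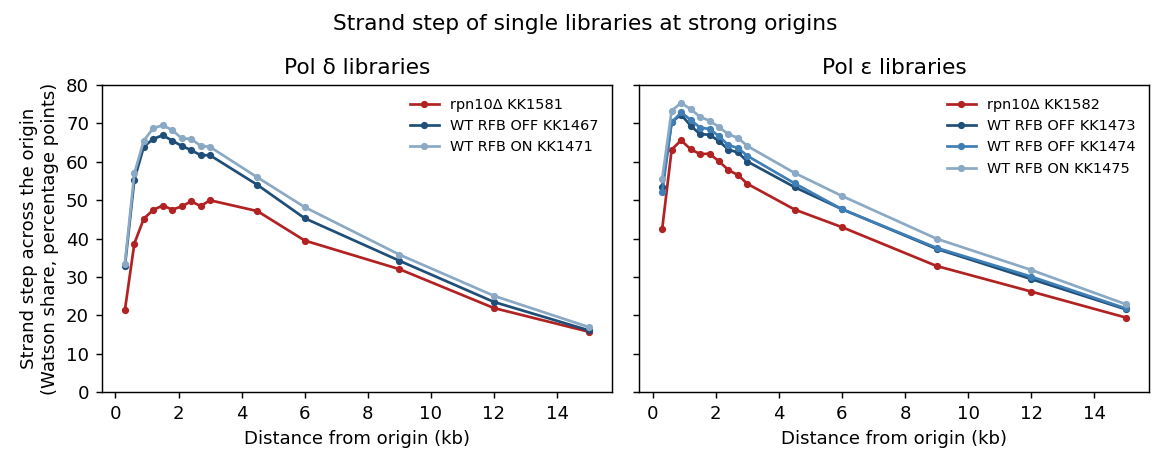
Change of the Watson share across strong origins in each library (y axis, percentage points, with the sign turned for Pol δ) by distance from the origin centre (x axis, kb), with WT RFB ON beside *rpn10Δ* and WT RFB OFF. The *rpn10Δ* Pol δ step is furthest from WT RFB OFF near the centre (-45.2 in *rpn10Δ* against -63.9 points in WT RFB OFF at 0.9 kb) and close to it at 15 kb (-15.8 in *rpn10Δ* against -16.1 points in WT RFB OFF).

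Origins had a smaller jump in *rpn10Δ*, with their places kept. The jump is the rise in rightward fork share across an origin, over 1.5 kb on each side, and 555 origins with a jump of at least 0.15 in WT RFB ON were measured. Its mean was 0.338 ± 0.155 in *rpn10Δ* and 0.411 ± 0.187 in WT RFB OFF (SD over origins), a ratio of 82.3% (exact permutation test, two-sided, p = 0.167, the smallest possible). With WT RFB ON among the wild type, the origins were called in the *nup132Δ* Hygro libraries instead. On that other set of origins the mean jump of *rpn10Δ* was 0.456, and the ratio was 81.5% (exact permutation test, two-sided, p = 0.0833, the smallest possible). The jump was smaller in *rpn10Δ* at 514 origins (92.6%) and larger at 41. By chromosome the ratio was 82.5% on I, 82.4% on II and 81.4% on III.

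The reduction was in proportion to the strength of the origin. In the strongest class the mean jump was 0.520 in *rpn10Δ* and 0.633 in WT RFB OFF (82.2%), and it was smaller in *rpn10Δ* at 185 of 185 origins. In the middle class it was 0.327 in *rpn10Δ* and 0.396 in WT RFB OFF (82.6%, smaller at 176). In the weakest class it was 0.168 in *rpn10Δ* and 0.205 in WT RFB OFF (81.9%, smaller at 153). A line through 0 of the *rpn10Δ* jump on the WT RFB OFF jump had a slope of 0.821, and origins scattered about it with an SD of 0.0305. The same line for WT RFB ON had a slope of 1.03 and a scatter of 0.0297, while a residual beyond 0.1 was seen at 6 origins in *rpn10Δ* and at 2 in WT RFB ON. The counting error of 1 jump had a median of 0.0161. Correlation with WT RFB OFF over origins was r = 0.980 in *rpn10Δ* and 0.988 in WT RFB ON (across origins, from the same libraries).

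**Figure D3:**
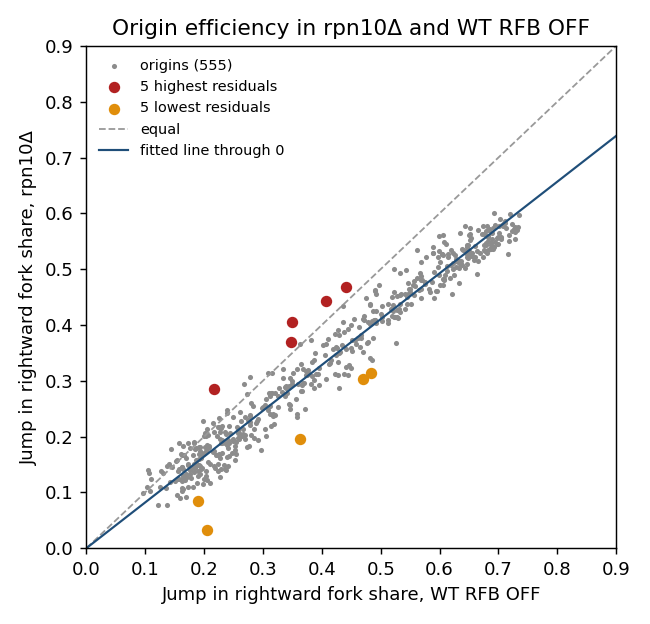
Jump in rightward fork share (no unit) at each of 555 origins in *rpn10Δ* (y axis) against WT RFB OFF (x axis), with the line through 0 (solid), equality (dashed) and the origins of highest and lowest residual in colour. The points follow a slope of 0.821 with a scatter of 0.0305, and most lie below equality.

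Origins called in each strain for itself gave 517 in *rpn10Δ* and 565 in WT RFB OFF. Within 1.5 kb, 506 were shared, which is 97.9% of the *rpn10Δ* origins and 89.6% of the WT RFB OFF origins, and 392 of them (77.5%) fell on the same bin. The 59 called in WT RFB OFF only were weak, with a median jump of 0.173 there and none above 0.243. Of those that 0.15 in WT RFB ON let in or kept out, the nearest was III:311850 (0.111 in *rpn10Δ*, 0.125 in WT RFB OFF) on the inside and I:4541250 (0.110 in *rpn10Δ*, 0.122 in WT RFB OFF) on the outside, both given as chromosome and bin centre.

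Origin bins were rich in A and T, and this did not separate those that kept more of their jump. On chromosome I the 237 origin bins had a median A and T content of 73.7%, against 63.7% over all bins, and a median longest A and T run of 18 bases against 11. Between protein-coding genes lay 185 of them (78.1%), against 13.6% of all bins. The median content was 76% in strong, 73.5% in middle and 71.3% in weak origins. Across origins, A and T content correlated with the jump with r = 0.475 in *rpn10Δ* and 0.456 in WT RFB OFF (the same 237 bins and libraries in common), and with the residual from the line with r = 0.131. Origins of high A and T content kept 82.9% of the WT RFB OFF jump in *rpn10Δ* (n = 123) and the others 81.8% (n = 114). Origins between genes kept 82.6% and those within genes 82.3% (n = 52).

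Origins furthest above the common line were picked for their residuals and are given as a description. At *urg3* and *urg1*, which belong to a group of uracil-regulated genes, the jump was 0.405 in *rpn10Δ*, 0.350 in WT RFB OFF and 0.381 in WT RFB ON. The Watson share there changed by -22.4 points in *rpn10Δ* Pol δ and -22.6 points in WT RFB OFF Pol δ. For Pol ε the change was 54.8 points in *rpn10Δ*, against 50.2 and 48.6 in WT RFB OFF. This origin therefore kept its Pol δ step, in contrast to the average origin, and its Pol ε step lay above both WT RFB OFF libraries. The 7 Pol ε libraries of other genotypes ran from 23.9 to 53.8 points there, so the highest of them was close to *rpn10Δ*.

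At *ypt2*, which encodes a Rab GTPase of secretion, and *rad26*, which encodes the partner of the checkpoint kinase Rad3, the jump was 0.444 in *rpn10Δ*, 0.407 in WT RFB OFF and 0.454 in WT RFB ON. The Watson share changed by 59.4 points in *rpn10Δ* Pol ε, against 50 and 50.9 in WT RFB OFF, and by -28.0 points in *rpn10Δ* Pol δ, against -32.8 in WT RFB OFF. At this origin only the Pol ε step exceeded WT RFB OFF. Of the others of this kind, II:332250 and II:1870650 had jumps of 0.285 and 0.370 in *rpn10Δ*, against 0.217 and 0.348 in WT RFB OFF. WT RFB ON had 0.271 and 0.396 there, the second above *rpn10Δ*, and with WT RFB ON in place of WT RFB OFF the residual at II:332250 was 0.0707 instead of 0.107. At the strongest origin of chromosome I, between *mnl1* and *tsc3*, the jump was 0.576 in *rpn10Δ*, 0.728 in WT RFB OFF and 0.749 in WT RFB ON.

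Origins furthest below the line lay on chromosomes II and III. At II:78450 the jump was 0.0327 in *rpn10Δ*, 0.205 in WT RFB OFF and 0.188 in WT RFB ON. The Watson share changed there by -8.83 points in *rpn10Δ* Pol δ, against -24.3 in WT RFB OFF, and by -2.22 points in *rpn10Δ* Pol ε, against 17.4 and 16.96 in WT RFB OFF. Among the 7 libraries of other genotypes, the change there ran from -24.3 to -9.60 points for Pol δ and from -4.87 to 17.8 points for Pol ε. The Pol δ step of KK1581 was thus smaller but kept its direction, and this origin lies in the segment with the lowest amplitude. The jump was 0.195 in *rpn10Δ* and 0.363 in WT RFB OFF at II:2583150, and 0.303 in *rpn10Δ* and 0.470 in WT RFB OFF at II:3362850. At the second of these WT RFB ON had 0.416, and the residual of *rpn10Δ* was -0.0825 from WT RFB OFF but -0.0255 with WT RFB ON in its place. It was 0.315 in *rpn10Δ* and 0.484 in WT RFB OFF at III:563550. At II:3468450 it was 0.0841 in *rpn10Δ* and 0.189 in WT RFB OFF. No genes are given for them, because only on chromosome I did the bins end with the reference.

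Merging points showed no common shift to the left or right in *rpn10Δ*. The merging point is where the rightward share falls through 0.5 between neighbouring origins. The 412 intervals measured (median length 23.1 kb) were those with such a fall in WT RFB ON. In each strain the point was placed by the number of bins with a share over 0.5, so a fall in that strain was not required. The median shift of the point between *rpn10Δ* and WT RFB OFF was 0 kb (exact permutation test, two-sided, p = 1). The mean shift was 0.00437 kb (exact permutation test, two-sided, p = 0.833). Shifts to the left and right cancel in both values, so these tests cannot show whether single points moved. The median size of the shift, whatever its direction, was 0.6 kb in *rpn10Δ* and 0.3 kb in WT RFB ON. In *rpn10Δ* the point lay further right in 174 intervals, further left in 168 and in the same bin in 70. The shifts scattered more than between the wild-type strains, with an SD of 1.25 kb against 0.813 kb for WT RFB ON. The intervals were chosen in WT RFB ON, so part of this difference can come from that choice. The shift was within 1 kb in 310 intervals (75.2%) in *rpn10Δ* and in 358 (86.9%) in WT RFB ON. Shifts above 3 kb were seen in 13 intervals in *rpn10Δ* and in 5 in WT RFB ON. The WT RFB ON libraries had 6505386 (Pol δ) and 17765156 (Pol ε) counts, the first fewer and the second more than the *rpn10Δ* libraries.

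The largest shifts to the right, chosen by size, were on chromosome I. Between the origins at 4881750 and 4905150, the merging point was at 4899.45 kb in *rpn10Δ*, 4891.95 kb in WT RFB OFF and 4892.55 kb in WT RFB ON, a shift of 7.5 kb across *fcp1*, the phosphatase gene of the RNA polymerase II tail, and *atg4*, a protease gene of autophagy. Between 1837950 and 1866150 it was at 1864.05 kb in *rpn10Δ* and 1858.05 kb in WT RFB OFF, a shift of 6 kb across *scm3*, the chaperone gene of the centromeric histone. The left-hand origin of that interval neighbours *urg1* and had a jump of 0.145 in *rpn10Δ* and 0.182 in WT RFB OFF. Between 5189250 and 5233650 it was at 5207.85 kb in *rpn10Δ* and 5201.85 kb in WT RFB OFF, in the region of *pyp2*, a phosphatase gene of the stress MAP kinase pathway, and *cid1*. This interval holds I:5200050, beside the retrotransposon *Tf2-8*. Reads of Tf2 copies can be shared between near-identical elements, so this shift is uncertain.

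Of the largest shifts to the left, that between the origins at 2803350 and 2862150 of chromosome I was -6 kb, at 2840.55 kb in *rpn10Δ* and 2846.55 kb in WT RFB OFF, around *spo12* and *abc2*. The interval that holds *rpn10* itself, between 4533450 and 4604550, had its merging point at 4574.25 kb in *rpn10Δ*, 4579.35 kb in WT RFB OFF and 4582.05 kb in WT RFB ON, a shift of -5.1 kb. The deleted bins lie to the left of that point in each strain. On chromosome II, between 3380850 and 3399150, it was at 3387.15 kb in *rpn10Δ* and 3390.75 kb in both wild-type strains, beside the region described last.

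**Figure D4:**
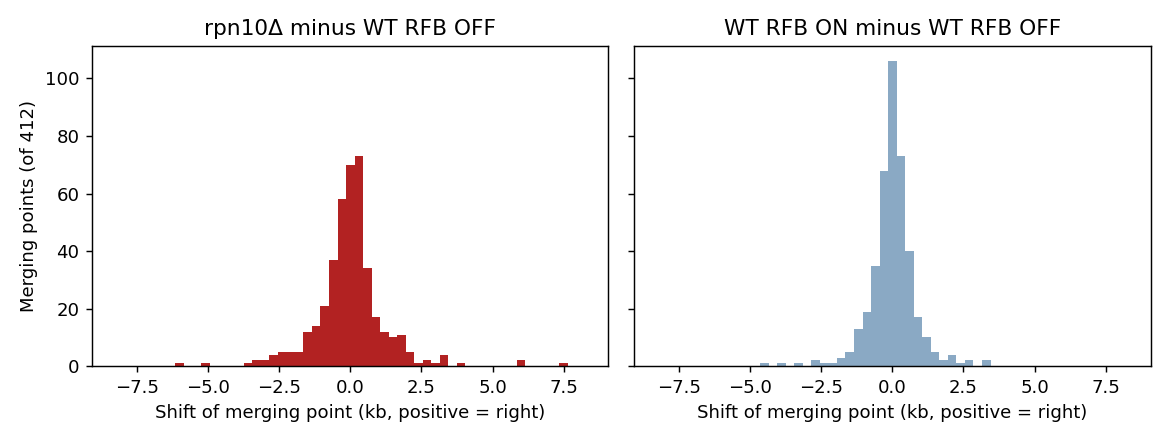
Distribution of merging point shifts (x axis, kb, positive to the right) relative to WT RFB OFF for *rpn10Δ* and WT RFB ON (y axis, number of intervals). Both centre on 0 kb, and *rpn10Δ* has the wider spread (SD 1.25 kb in *rpn10Δ* against 0.813 kb in WT RFB ON).

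The mean of both strands was close in the strains in most region classes, which the division of each library by its total largely sets, so it cannot show whether net polymerase use changed. Bias, the mean Pol δ usage of the strands, was 0.498 at origins in *rpn10Δ* and 0.5 in WT RFB OFF, and 0.496 at merging points in *rpn10Δ* and 0.497 in WT RFB OFF. In rightward regions it was 0.511 in *rpn10Δ* and 0.514 in WT RFB OFF, made up of Watson usage of 0.221 in *rpn10Δ* against 0.178 in WT RFB OFF and Crick usage of 0.802 in *rpn10Δ* against 0.851 in WT RFB OFF. In leftward regions it was 0.511 in *rpn10Δ* and 0.515 in WT RFB OFF, with Watson usage of 0.8 in *rpn10Δ* against 0.85 in WT RFB OFF and Crick usage of 0.223 in *rpn10Δ* against 0.180 in WT RFB OFF. The changes on the 2 strands thus nearly cancelled in each class. In the outer 100 kb of chromosomes I and II bias was 0.493 in *rpn10Δ*, 0.467 in WT RFB OFF and 0.444 in WT RFB ON (*rpn10Δ* minus WT RFB OFF 0.0263, exact permutation test, two-sided, p = 0.5). In the outer 50 kb of chromosome III, which carries the ribosomal DNA, it was 0.531 in *rpn10Δ*, 0.537 in WT RFB OFF and 0.544 in WT RFB ON.

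The *rpn10Δ* libraries showed no sign of an active barrier. Between 1 and 3 kb downstream of RTS1, Watson Pol δ usage was 0.152 in *rpn10Δ* and 0.0939 in WT RFB OFF, while WT RFB ON had 0.884. Crick usage there was 0.843 in *rpn10Δ* and 0.898 in WT RFB OFF. Bias was 0.497 in *rpn10Δ* and 0.496 in WT RFB OFF, against 0.869 in WT RFB ON, where both strands were made mostly by Pol δ. Upstream, between 1 and 5 kb, Watson usage was 0.216 in *rpn10Δ* and 0.137 in WT RFB OFF, and Crick usage 0.817 in *rpn10Δ* and 0.884 in WT RFB OFF. The differences on both sides of the barrier had the direction found genome-wide.

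Windows of 3 kb on each strand were tested one by one in a model over all 20 usable libraries (edgeR quasi-likelihood, interaction of polymerase and strain). Of 8380 windows, 26 passed an adjusted p of 0.05 (0.31%), with Pol δ usage higher in *rpn10Δ* in 18 (0.215%) and lower in 8 (0.0955%). At an unadjusted p of 0.05, 1549 passed. All windows were also classed by their WT RFB OFF usage, which is 1 side of the comparison. Part of a move toward 0.5 in the outer classes can come from that choice. Of the 699 with WT RFB OFF usage up to 0.2, 696 (99.6%) were higher in *rpn10Δ*, with a median usage of 0.209 in *rpn10Δ* and 0.163 in WT RFB OFF. Of the 908 above 0.8, 1 was higher, with a median of 0.804 in *rpn10Δ* and 0.852 in WT RFB OFF. WT RFB ON, which was not used to form the classes, had medians of 0.148 (up to 0.2) and 0.866 (above 0.8). In the middle class, between 0.4 and 0.6, 1179 of 2400 (49.1%) were higher. The *rpn10Δ* group has 1 library per polymerase, whose spread is assumed to be that of the other groups. Without WT RFB OFF Pol ε library KK1473 the count fell to 11, without KK1474 to 12, and without the Pol ε libraries of the *rpn10Δ* Hygro strain, which held *rpn10* counts at 52.9% and 50.9% of the WT RFB OFF level, to 12.

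Of the called windows, 12 lay in 1 region, chrII:3387001-3423000, and the other 14 were spread over 11 sites. In that region usage was higher in 9 windows and lower in 3. On the Crick strand of chrII:3414001-3417000, the Pol δ counts were 809 in *rpn10Δ* and 463 in WT RFB OFF, and the Pol ε counts 1272 in *rpn10Δ*, against 2969 and 3289 in WT RFB OFF. Usage was 0.386 in *rpn10Δ* and 0.112 in WT RFB OFF, with a log2 interaction of 2.33 (edgeR quasi-likelihood, adjusted p = 9.56e-06). On the Watson strand of the same window usage was 0.632 in *rpn10Δ* and 0.865 in WT RFB OFF (log2 -1.89, edgeR adjusted p = 0.000223). The strands thus moved in opposite directions.

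In the window to its left, chrII:3411001-3414000, the Watson counts were 1191 in *rpn10Δ* Pol δ and 1020 in *rpn10Δ* Pol ε. In WT RFB OFF they were 3165 for Pol δ and 561 and 581 for Pol ε. Watson usage was 0.536 in *rpn10Δ* and 0.825 in WT RFB OFF (log2 -2.02, edgeR adjusted p = 2.09e-05), and Crick usage 0.497 in *rpn10Δ* and 0.174 in WT RFB OFF (log2 2.24, edgeR adjusted p = 7.47e-05). Both strands were close to equal use there in *rpn10Δ*, in a window that mostly leftward forks copied in WT RFB OFF. On the Crick strand of chrII:3420001-3423000 usage was 0.237 in *rpn10Δ* and 0.0792 in WT RFB OFF (log2 1.86, edgeR adjusted p = 0.000224). At the left end, Watson usage of chrII:3393001-3396000 was 0.740 in *rpn10Δ* and 0.538 in WT RFB OFF (log2 1.30, edgeR adjusted p = 0.00356), and Crick usage of chrII:3387001-3390000 was 0.374 in *rpn10Δ* and 0.540 in WT RFB OFF (log2 -0.97, edgeR adjusted p = 0.0121). The call of the last of these was lost without KK1473 (edgeR adjusted p = 0.0742) and without KK1474 (edgeR adjusted p = 0.0543).

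Position 3409650 of this region was called as an origin in *rpn10Δ* and in neither wild-type strain. The jump there was 0.297 in *rpn10Δ*, -0.0631 in WT RFB OFF and -0.0615 in WT RFB ON. In the 6 kb to its right the rightward share was 0.471 in *rpn10Δ*, 0.185 in WT RFB OFF and 0.164 in WT RFB ON, and in the 6 kb after that it was 0.258 in *rpn10Δ*, 0.1 in WT RFB OFF and 0.0885 in WT RFB ON. To its left the share was lower, at 0.264 in *rpn10Δ* and 0.350 in WT RFB OFF over the nearest 6 kb, and at 0.414 in *rpn10Δ* and 0.579 in WT RFB OFF between 18 and 24 kb away. Between 12 and 18 kb to the right, where the origin II:3424350 lies, the mean share was 0.568 in *rpn10Δ* and 0.563 in WT RFB OFF. Differences in both directions cancel in these means. At 12 kb the share was 0.209 in *rpn10Δ* against 0.0867 in WT RFB OFF, and at 15.6 kb 0.828 in *rpn10Δ* against 0.880 in WT RFB OFF. Further right *rpn10Δ* was higher again, at 0.585 against 0.516 in WT RFB OFF between 30 and 36 kb and at 0.375 against 0.312 in WT RFB OFF between 42 and 48 kb. That origin had a jump of 0.581 in *rpn10Δ* and 0.723 in WT RFB OFF, and the nearest one on the left, II:3399150, 0.141 in *rpn10Δ* and 0.106 in WT RFB OFF. Around this point the rightward share of *rpn10Δ* was thus lower on the left and higher over the nearest 12 kb on the right. Whether fork direction or the strands used by the polymerases differed cannot be told apart here.

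Single libraries showed the switch with both polymerases. Across 3409650 the Watson share was 72.8% on the left and 39.0% on the right in *rpn10Δ* Pol δ, against 64.5% and 64.6% in WT RFB OFF Pol δ. In *rpn10Δ* Pol ε it was 26.2% on the left and 49.6% on the right, against 32.7% and 18.9% in KK1473 and 31.5% and 20.9% in KK1474. The Pol δ libraries of the second *rpn10Δ* strain, with the Hygro marker and *rtf1*, changed by -40.3 and -43.4 points, beside -33.8 in KK1581. The 7 usable Pol δ libraries of other genotypes ran between -4.34 and 0.406 points. For Pol ε the change was 23.4 points in KK1582, against -13.9 to -3.59 in the 7 libraries of other genotypes. The Hygro Pol ε libraries, whose *rpn10* counts go against their label, changed by -3.05 and -6.05 points. Across the genome, their slope of the Watson share on fork direction was -18.9% (KK1894) and -14.8% (KK1895) of WT RFB OFF Pol ε. This reverses the polarity of the other Pol ε libraries, so their change here cannot be read as a Pol ε step. The changes across 3409650 describe a site that was picked for its difference and carry no test.

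**Figure D5:**
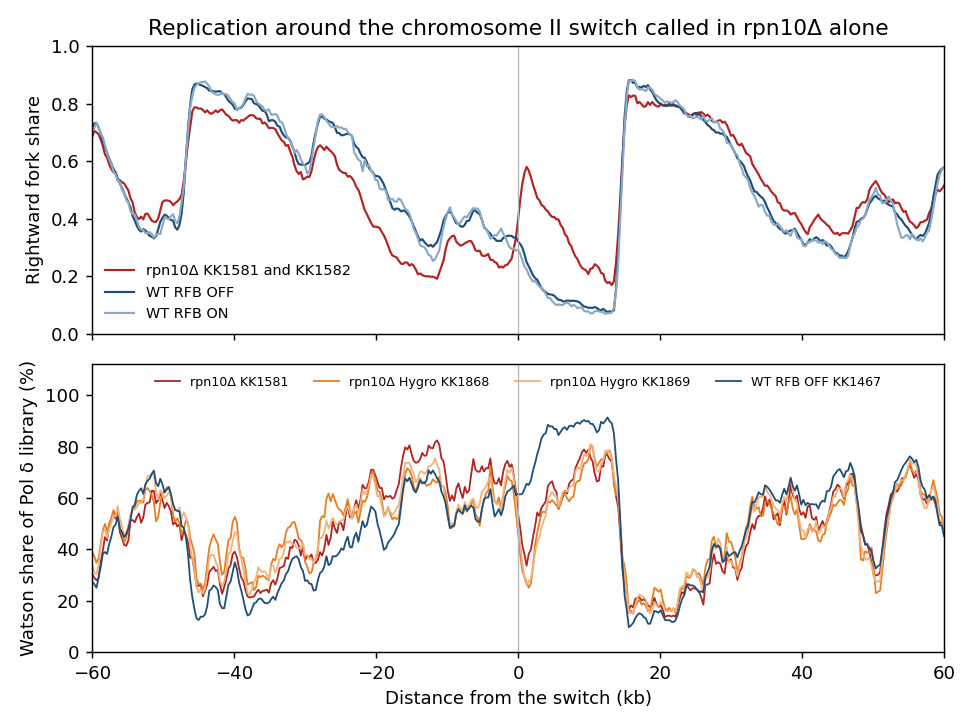
Rightward fork share (upper panel, no unit) and Watson share of single Pol δ libraries, those of the Hygro *rpn10Δ* strain included (lower panel, %) by distance from the *rpn10Δ* switch on chromosome II (x axis, kb). To the right of 0 kb the *rpn10Δ* share lies above both wild-type strains (0.471 in *rpn10Δ* against 0.185 in WT RFB OFF and 0.164 in WT RFB ON over 6 kb). It is still higher at 12 kb (0.209 in *rpn10Δ* against 0.0867 in WT RFB OFF) and lower at 15.6 kb (0.828 in *rpn10Δ* against 0.880 in WT RFB OFF). Between 18 and 24 kb the means are close (0.791 in *rpn10Δ* and 0.799 in WT RFB OFF). Between 30 and 54 kb *rpn10Δ* is above the wild-type strains again.

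Origins called in *rpn10Δ* but not in WT RFB OFF numbered 11, of which 2 others also had a low jump in WT RFB OFF. At II:4131150 the jump was 0.178 in *rpn10Δ*, 0.0410 in WT RFB OFF and 0.106 in WT RFB ON, and 3 of the called windows lay at chrII:4131001-4140000. The Watson share changed there by 21.6 points in *rpn10Δ* Pol ε, against 7.86 to 17.8 in the 7 libraries of other genotypes. For Pol δ it changed by -17.3 to -11.9 points in the 3 *rpn10Δ* libraries, the Hygro pair included, against -5.73 to 12.3 points in 7 libraries of other genotypes. At I:5200050, between the retrotransposon *Tf2-8* and *pyp2*, the jump was 0.164 in *rpn10Δ*, 0.0207 in WT RFB OFF and -0.0461 in WT RFB ON. Reads of Tf2 copies can be shared between near-identical elements, so this value is uncertain. The Watson share of Pol δ falls from left to right across an origin, but here it rose in every library. The rise was 16.6 to 38.0 points in the 3 *rpn10Δ* Pol δ libraries and 33.2 to 50.5 points in the 7 of other genotypes.

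Called windows outside that chromosome II region included 3 of the 10 named by p. Crick usage of chrII:819001-822000 was 0.393 in *rpn10Δ* and 0.188 in WT RFB OFF (log2 1.5, edgeR adjusted p = 0.00262). On chrI:3741001-3744000, which holds *prm1*, a gene of cell fusion in mating, and *lys1* of lysine synthesis, Crick usage was 0.477 in *rpn10Δ* and 0.616 in WT RFB OFF (log2 -0.80, edgeR adjusted p = 0.0232). On chrIII:573001-576000 it was 0.798 in *rpn10Δ* and 0.910 in WT RFB OFF (log2 -1.36, edgeR adjusted p = 0.0232). The last 2 windows lost their call without either WT RFB OFF Pol ε library and without the Hygro *rpn10Δ* Pol ε libraries (adjusted p between 0.0560 and 0.158). Of all 26 called windows, 21 had usage nearer 0.5 in *rpn10Δ* than in WT RFB OFF. Within 10 kb of the barrier, 16 windows ran from -1.02 to 0.99 on the log2 scale, and 0 were called by edgeR (lowest adjusted p = 0.108). Of these 16, 5 passed an unadjusted edgeR p of 0.05 and 2 were called by DESeq2. Over all 8380 windows the counts were 1549 and 290.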

How the data were processed

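Pu-Seq libraries of *S. pombe* were made from strains with a mutant Pol δ or Pol ε. The deposited counts, made by the authors, are whole numbers of read ends per 300.0-bp bin and strand, after alignment with Bowtie2 (version and genome build not given in the sources used here) and counting with a custom Perl script. The part that read filtering had in bins of repeated sequence was not tested. Members, lists and rules were chosen with earlier results of these data known.

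Libraries with a mean under 10 counts per bin and strand pair were left out. Usage, jumps, merging points and bias were computed as described above with Python 3.11.15, numpy 2.4.6, scipy 1.17.1 and pandas 2.3.3, with origins at least 3 kb apart. Figures were drawn with matplotlib 3.10.9. Strain labels were permuted exactly within each polymerase. Windows were fitted with edgeR 4.0.16 (R 4.3.3, glmQLFit and glmQLFTest, TMM, 13 groups, 7 residual degrees of freedom, Benjamini-Hochberg), with DESeq2 1.42.0 as an alternative. Scripts were tested on simulated data. Other alternatives changed scaling, filters, bin and window sizes, thresholds, the axis and the libraries used. Named are the 5 origins with the highest and the 5 with the lowest residual, at least 20 kb from the barrier and chromosome ends, the 3 largest merging shifts each way and up to 5 windows per direction by p. Of these origins, 1 is not reported here. Reference bases and genes (ASM294v3) were used for chromosome I only, where the bins end with the reference. Counts of replicates differed beyond sampling noise, with a chi-square per degree of freedom of 1.92 between the WT RFB OFF Pol ε libraries. Intervals cover counting error only.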

Additional observations from a re-analysis of the deposited data

How the results depend on the processing

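No paired analysis was possible because the labels carry no shared replicate numbers and *rpn10Δ* had 1 library per polymerase. Amplitude stayed between 0.840 and 0.874 of the wild type and the mean origin jump between 0.808 and 0.839 under the alternatives run, and the median merging shift was 0 kb in each. With WT RFB ON in place of WT RFB OFF the bias difference turned positive at origins (0.0209), merging points (0.0112), rightward regions (0.00234) and leftward regions (0.000902). Downstream of the barrier it ran from -0.00117 to 0.00330 without 1 of the WT RFB OFF Pol ε libraries. These bias differences are small and the cause was not tested. The 26 called windows became 290 with DESeq2 (all 26 among them), 13 with 6 kb windows, 3561 with only the compared libraries (1 residual degree of freedom), 12 without the *rpn10Δ* Hygro Pol ε libraries, and 11 to 12 without 1 of the WT RFB OFF Pol ε libraries. Between 9 and 10 of those left in the last 3 fits lay in the chromosome II region. The counting error of a single jump (median 0.0161) limits what can be said of single weak origins.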
